A study of Mus musculus with 6 samples.

Results

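Circular RNAs (circRNAs) are RNA molecules whose ends are joined, formed when the splicing machinery connects the end of an exon to the start of the same exon or of one further upstream. Having no free ends, they resist exonucleases such as RNase R and can outlast the linear transcripts of the same gene. Some are known to bind microRNAs, which is the basis of the competing endogenous RNA model, and the question the submitters state is which circRNAs might act in this way in the ovary under hypoxia. The 9 circRNAs described here are novel_circ_033284, novel_circ_056337, novel_circ_030267, novel_circ_021524, novel_circ_002088, novel_circ_023565, novel_circ_029469, novel_circ_015403 and novel_circ_012226. They are 9 of the 57233 circRNAs listed in the deposited table, and were selected on the measured difference between the groups compared below. All their values for that difference are therefore a description, without a test.

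The series holds 6 circRNA libraries of whole ovary from female C57BL/6J mice, an inbred strain, with 3 libraries a group and a single batch in the labels. Mice of the normal pressure group lived in Lanzhou, China, for 15 days at 83.56 kPa (oxygen 17.8 kPa), given as 1500 m in the titles. Mice of the hypobaric hypoxia group lived for 15 days in a chamber at 43.12 kPa (oxygen 8.1 kPa), which the titles equate with 6500 m and the sample descriptions with 5000 m. Both groups had 15 mice, aged 6 to 8 weeks in the sample descriptions and 8 weeks in the design text of the series. Both had first received levonorgestrel and ethinylestradiol, a progestin and an estrogen, by gavage to synchronize their cycles. Doses of 0.1 and 0.02 mg/kg are given for the hypoxia group only. Whether a library is RNA of 1 mouse or of several is not stated. The spread between these libraries, on which p-values rest, may therefore be technical. For single circRNAs, the p-values take that spread largely from circRNAs of like abundance. The table pairs no circRNA with a gene, a position or a sequence. No host gene, sequence or role can therefore be given for the 9, and the ovarian label was not checked against marker genes. In whole tissue, more cells of a type that holds a circRNA and more of the circRNA per cell cannot be told apart.

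Abundance is given as RPM, reads scaled to the same total over the listed circRNAs of each library, so each value is a share of the circRNA reads of its library. RPM moved in steps from which the reads behind each value could be recovered. The circRNA reads numbered from 151364 to 369055 at normal pressure and from 487143 to 526621 under hypobaric hypoxia, and the shallowest library was normal pressure replicate 2. In that library 1 read is worth 6.61 RPM, against 1.90 to 2.74 RPM in the other libraries, and no value rests on fewer than 2 reads. Levels of different circRNAs are not ranked here, since their lengths are not given.

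All 9 circRNAs were more abundant in every hypobaric hypoxia library than in any normal pressure library. Ratios of mean RPM ran from 1.96 to 10.4 and reached 2 for 7 of the 9. Together they made up 0.0945% ± 0.00681 of the RPM at normal pressure and 0.213% ± 0.0170 under hypobaric hypoxia (SD, n = 3). Among all 15737 circRNAs seen in at least 3 libraries and hence tested, 9.12% were higher under hypobaric hypoxia with groups that did not overlap. In the limma fit across those circRNAs, 0.165% were called higher (26 circRNAs, Benjamini-Hochberg adjusted p under 0.05) and 38 were called lower. After centring each library on its median these numbers were 37 and 22. The 9 coincide with the 9 largest log2 fold changes among the 26, so that 9 of 9 are called follows from the choice. At the edge of the list, novel_circ_012226 has a log2 fold change of 0.94 and the next called circRNA below it one of 0.92, from 129 ± 28.0 to 246 ± 22.7 RPM (SD, n = 3).

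**Figure D1:**
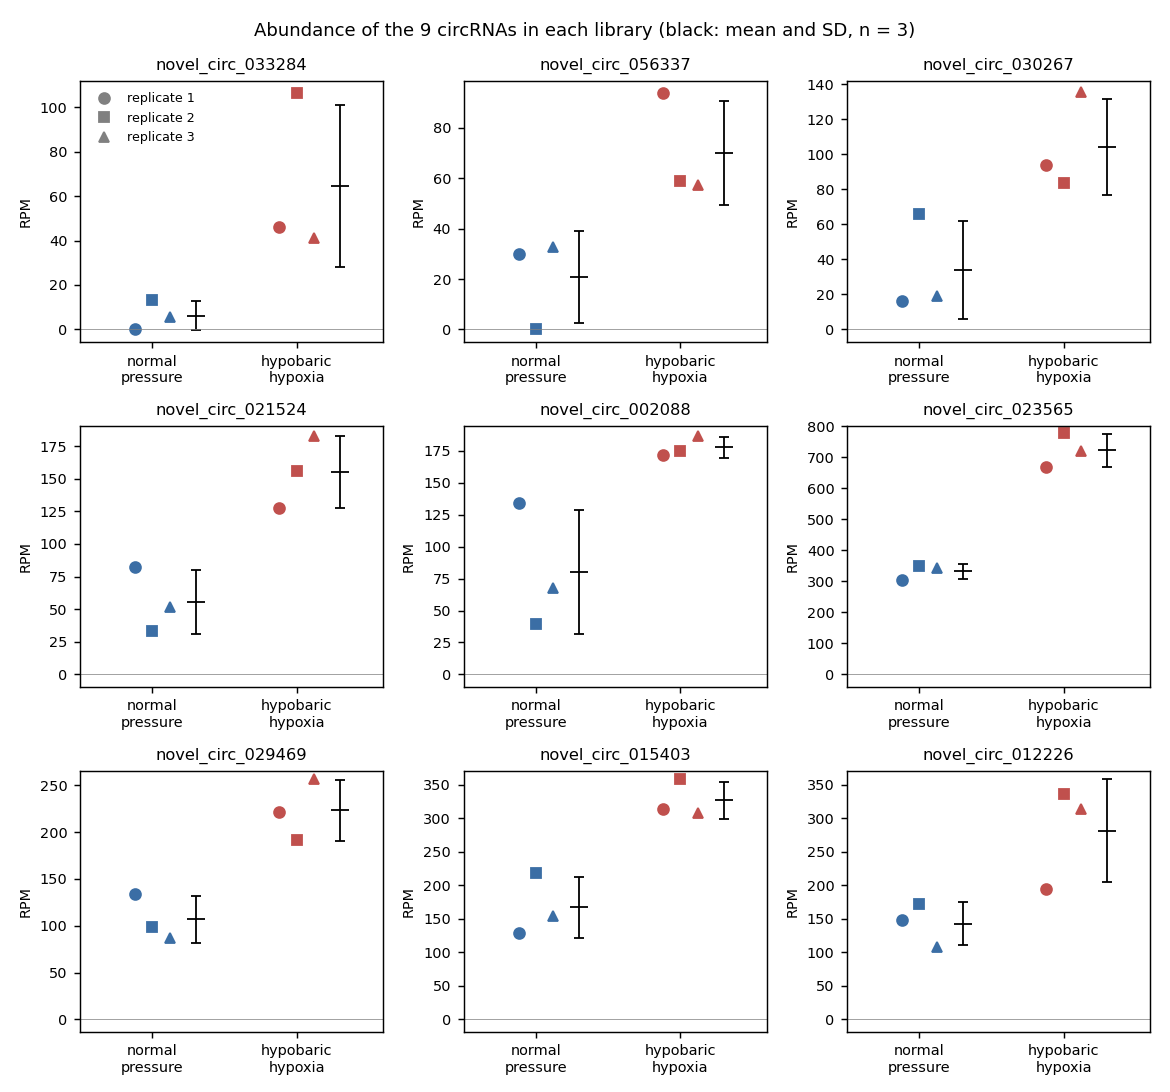
Abundance in RPM (vertical axes, linear, each panel with its own range) of the 9 circRNAs in the 3 normal pressure (blue) and 3 hypobaric hypoxia (red) libraries, with symbols for the replicate number and black bars for the mean and SD. In each panel the lowest red symbol lies above the highest blue one, by a wide margin for novel_circ_033284 and by a narrow one for novel_circ_012226.

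The most evenly measured of the 9 was novel_circ_023565. Its abundance was 304, 350 and 341 RPM at normal pressure replicates 1, 2 and 3 and 669, 777 and 721 RPM in the hypobaric hypoxia replicates. The 3 libraries of each group lay close together, and the lowest hypoxia value was 1.91 times the highest normal pressure value. The mean went from 332 ± 24.5 to 722 ± 54.0 RPM (SD, n = 3), a ratio of 2.18. These values rest on 53 to 409 reads per library. On the scale of log2(RPM + 4.765), the log2 fold change was 1.11 ± 0.16 (SE), and leaving out any 1 library kept it between 1.05 and 1.16.

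A further 3 circRNAs, each at close to double the abundance under hypoxia, were read at least 15 times in every library. novel_circ_029469 had 134, 99.1 and 86.7 RPM at normal pressure and 222, 192 and 257 RPM under hypobaric hypoxia. Its means were 107 ± 24.6 and 223 ± 32.4 RPM (SD, n = 3, ratio 2.09), and the groups were separated by a factor of 1.43 between the nearest libraries. For novel_circ_015403 the values were 129, 218 and 154 RPM at normal pressure and 313, 359 and 308 RPM under hypobaric hypoxia. The hypoxia libraries agreed closely, whereas normal pressure replicate 2 stood above the other libraries of its group. Its means were 167 ± 46.0 and 327 ± 28.0 RPM (SD, n = 3, ratio 1.96). The narrowest gap of the 9 was that of novel_circ_012226, with 148, 172 and 108 RPM at normal pressure and 194, 336 and 314 RPM under hypobaric hypoxia. Hypoxia replicate 1 lay nearer to the normal pressure libraries than to the other hypoxia libraries, at 1.13 times the highest of them. Its means were 143 ± 32.0 and 281 ± 76.7 RPM (SD, n = 3, ratio 1.97). The log2 fold changes of these circRNAs were 1.05 ± 0.26, 0.98 ± 0.22 and 0.94 ± 0.23 (SE), in the order given.

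In another 3 circRNAs, all of them seen in every library, the normal pressure libraries differed among themselves by more than a factor of 2. novel_circ_002088 had 134, 39.6 and 67.7 RPM at normal pressure and 172, 175 and 187 RPM under hypobaric hypoxia. The hypoxia values were nearly equal, with a coefficient of variation of 4.50%, and those of normal pressure had one of 60.3%. Its means were 80.5 ± 48.6 and 178 ± 8.00 RPM (SD, n = 3, ratio 2.21). The ratio was 1.76 without normal pressure replicate 2, the lowest library, and 3.31 without replicate 1, the highest of the group. novel_circ_021524 showed the same order of normal pressure libraries, at 82.2, 33.0 and 51.5 RPM, against 128, 156 and 183 RPM under hypobaric hypoxia. Its means were 55.6 ± 24.8 and 155 ± 27.5 RPM (SD, n = 3, ratio 2.80). The order was the opposite for novel_circ_030267, where normal pressure replicate 2 was the high one at 66.1 RPM, against 16.4 and 19.0 RPM in replicates 1 and 3. Its hypoxia libraries had 93.8, 83.6 and 135 RPM. The means were 33.8 ± 28.0 and 104 ± 27.5 RPM (SD, n = 3, ratio 3.08), and without normal pressure replicate 2 the ratio was 5.89. That library's value rests on 10 reads, and those of the other normal pressure libraries on 6 and 7. Log2 fold changes were 1.25 ± 0.29, 1.48 ± 0.32 and 1.70 ± 0.40 (SE) for novel_circ_002088, novel_circ_021524 and novel_circ_030267.

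The 2 largest log2 fold changes of the 9 belonged to circRNAs that were listed at 0 in a normal pressure library. novel_circ_033284 was at 0 in replicate 1 and at 13.2 and 5.42 RPM in replicates 2 and 3, each of these resting on 2 reads. In hypobaric hypoxia it had 45.9, 106 and 41.1 RPM, from 23, 56 and 20 reads. Replicate 2 was thus more than double the others of its group, and all hypoxia values stood at least 3.11 times above the highest normal pressure value. The means were 6.21 ± 6.64 and 64.4 ± 36.4 RPM (SD, n = 3, ratio 10.4). Pooled over libraries, 99 reads in hypoxia against 4 at normal pressure gave a ratio of read shares of 14.5. The 95% interval from counting reads alone was 5.48 to 54.1 (exact binomial). It leaves out the spread between libraries and the choice of this circRNA on the same difference, so it is no test. A single read may also be hidden in a value of 0, since no listed value rests on fewer than 2 reads. The ratio of mean RPM of novel_circ_033284 was 6.92 and 23.8 without normal pressure replicate 1 or 2 and 7.00 without hypoxia replicate 2. The log2 fold change was 2.74 ± 0.70 (SE).

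novel_circ_056337 was listed at 0 at normal pressure replicate 2, where the smallest value that could be listed was 13.2 RPM, and at 30.1 and 32.5 RPM in replicates 1 and 3. In hypobaric hypoxia it had 93.8, 58.9 and 57.5 RPM, highest in replicate 1. The lowest hypoxia library was 1.77 times the highest normal pressure library, so the groups were apart whether or not the library at 0 is counted. The means were 20.9 ± 18.1 and 70.1 ± 20.6 RPM (SD, n = 3, ratio 3.35), and without that library the ratio was 2.24 and the log2 fold change 1.02 in place of 1.99. The standard error of 0.52 is smaller than the spread of this circRNA alone would give, since its own residual SD on the log2 scale was 1.22 and the fit drew it to 0.64, the SD of circRNAs of like abundance. In 6 of the 9 the own residual SD exceeded that of circRNAs of like abundance. Among them were novel_circ_030267 (0.72 against 0.48) and novel_circ_002088 (0.59 against 0.36). The standard errors of these 6 are thus smaller than their own spread would give. For novel_circ_023565 the own residual SD was the smaller one (0.11 against 0.20), and its standard error is larger than its own spread would give.

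**Figure D2:**
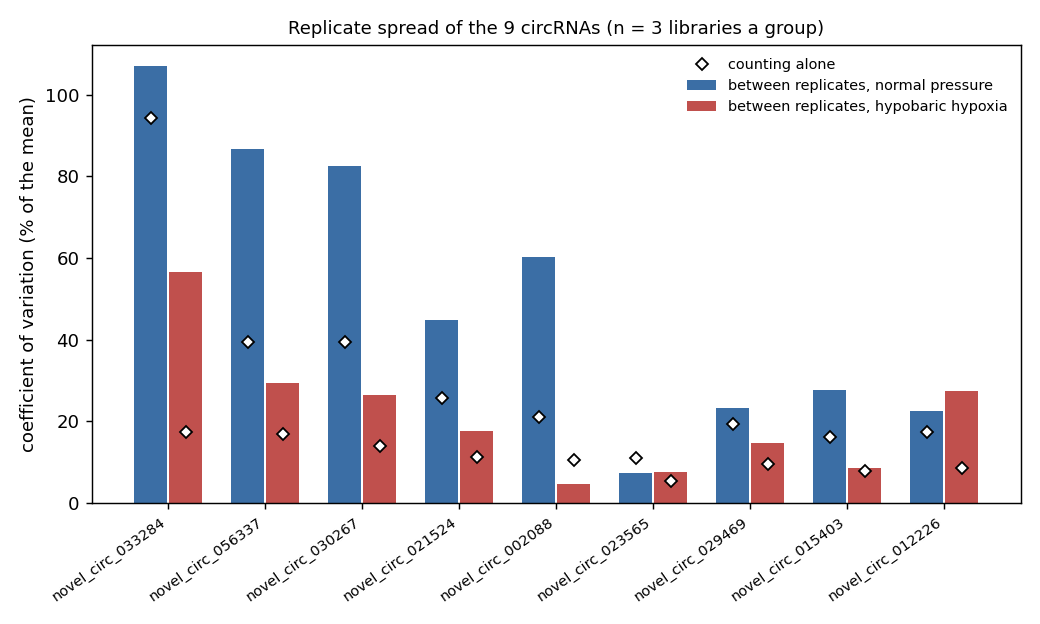
Coefficient of variation (SD as % of the mean) between the 3 libraries of each group (bars, axis from 0) and the one that counting of reads alone would give (white diamonds) for the 9 circRNAs. The bars of normal pressure exceed those of hypobaric hypoxia for 7 of the 9, and the diamonds are also higher there.

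Replicate spread differed between the groups in most of the 9. The coefficient of variation was larger at normal pressure for 7 circRNAs, the exceptions being novel_circ_023565, with 7.38% and 7.47%, and novel_circ_012226, with 22.4% and 27.3%. In normal pressure it ran from 7.38% to 107% and under hypobaric hypoxia from 4.50% to 56.4%. Counting alone would give 11.1% to 94.3% at normal pressure, where 4 to 290 reads per circRNA were counted over the group, and 5.24% to 17.4% in hypoxia, where 99 to 1095 were. The observed value exceeded that of counting for 8 of 9 circRNAs in each group, the exceptions being novel_circ_023565 at normal pressure and novel_circ_002088 in hypoxia. Whether depth sets the difference in spread between the groups was not tested.

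The 9 circRNAs did not share a pattern among replicates of a group. Normal pressure replicate 2 was the highest library of its group for 5 of them and the lowest for 3. Median deviations of the 9 from their group means on the log2 scale lay between -0.11 and 0.08 in the 6 libraries, while single circRNAs deviated by as much as -1.95 (novel_circ_056337 at normal pressure replicate 2) and 1.11 (novel_circ_030267 in the same library). In hypobaric hypoxia, replicate 1 was the lowest for 4 and the highest for 1.

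Depth differed between the groups in the same direction as the 9 circRNAs, so the values were also computed in 20 random draws that left each library with 151364 reads. Normal pressure replicate 2, already at that depth, was the same in every draw. The ranges and counts over draws therefore leave out its counting error. In single draws the groups overlapped in part of the cases. They stayed apart in all 20 draws for novel_circ_023565 and novel_circ_015403, in 15 to 19 for novel_circ_012226, novel_circ_033284, novel_circ_021524, novel_circ_029469, novel_circ_030267 and novel_circ_002088, and in 11 for novel_circ_056337. The log2 fold change of novel_circ_023565 ran from 1.01 to 1.29 over the draws, that of novel_circ_056337 from 1.17 to 2.91 and that of novel_circ_030267 from 1.24 to 3.06. Between 2 and 5 of the 9 were called by limma in a draw, out of 25 to 53 calls in all. Thinning adds random error and leaves the average share of most of the 9 nearly as it was. Single reads left by thinning were set to 0, which lowers scarce values. For novel_circ_033284, normal pressure replicate 3 averaged 1.98 RPM over the draws against 5.42 before, and the ratio was 12.3 against 10.4. These values show what the shallower depth can resolve, and the part of depth in the differences was not tested.

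**Figure D3:**
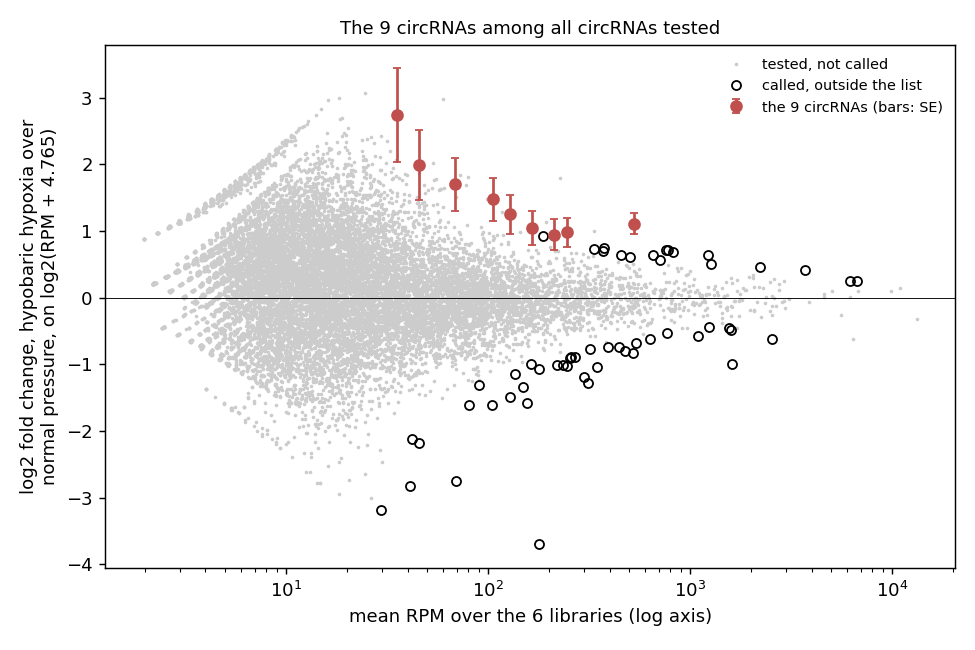
Log2 fold change of hypobaric hypoxia over normal pressure against mean RPM over the 6 libraries (log axis) for all 15737 circRNAs tested, with the 9 circRNAs in red (bars: standard error) and the other called circRNAs as open circles. The red points run along the upper edge of the cloud from 35.3 to 527 RPM, and grey points of equal or larger log2 fold change lie mostly to their left.

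The 9 were not the largest differences in the table. In all, 2435 circRNAs tested had a log2 fold change of at least 0.94, the smallest of the 9, and 2426 of these were not called by limma. The latter were mostly scarce, with a median of 10.4 RPM, and 595 of them were at 0 in all normal pressure libraries. By log2 fold change alone novel_circ_033284 ranked 7 among all circRNAs tested, and novel_circ_023565 ranked 1807. The mean RPM of the 9 lay between 35.3 and 527, where the median over all circRNAs tested was 14.8. At 35.3 RPM or more, 122 circRNAs outside the list had a log2 fold change of at least 0.94 without being called, and in 39 of them the groups did not overlap.

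CircRNAs whose ID numbers are close to those of the 9 were examined as context. They were taken by ID number, not by their own values. Their values are not fully independent of the choice, since the 9 coincide with the largest log2 fold changes among those called. What the numbering follows is not given in the sources used here. Of the 90 circRNAs with an ID number up to 5 below or above one of the 9, 38 were seen in enough libraries to be tested and 32 of these had a log2 fold change above 0, where 60.1% of all circRNAs tested did. Their median log2 fold change was 0.43, against 0.18 over all circRNAs tested. Among the 18 seen in all 6 libraries it was 0.34, and 15 of the 18 were above 0. The 6057 circRNAs of the whole table seen in all libraries had a median of -0.07 and 43.0% above 0. The 38 were unevenly spread over the 9. Around novel_circ_015403 lay 8 and around novel_circ_012226 7, all above 0, and around novel_circ_030267 4, all below 0. In 9 of the 38 the groups did not overlap, all with hypoxia higher, next to the 9.12% of all circRNAs tested. Of these 9 neighbours 3 were at 0 in all normal pressure libraries and could be tested only through the hypoxia libraries. For those 3, groups apart and a log2 fold change above 0 were fixed by the filter, and they also count among the 32. Some others of the 32, such as the neighbour directly below novel_circ_033284, were seen in a single normal pressure library and every hypoxia library. These passed the filter on the hypoxia libraries alone, though it did not fix their direction. Among the neighbours seen in all libraries the groups did not overlap in 4 of 18, next to 6.03% of the 6057.

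By limma, 2 of the 38 were called higher, next to 0.165% of all circRNAs tested, a share that is not matched for abundance. These 2 averaged 454 and 507 RPM over the 6 libraries, where the median over all circRNAs tested was 14.8. One has the ID number 1 below novel_circ_012226, with 375, 370 and 317 RPM at normal pressure and 511, 596 and 552 RPM under hypobaric hypoxia. Its groups did not overlap, and its means of 354 ± 32.2 and 553 ± 42.6 RPM (SD, n = 3) differed by 0.64 ± 0.17 (SE) on the log2 scale (limma adjusted p = 0.0385). The other has the ID number 3 below novel_circ_029469, with 373, 410 and 417 RPM at normal pressure and 535, 708 and 601 RPM under hypobaric hypoxia. There too each hypoxia library was above each normal pressure library, by 0.61 ± 0.16 (SE) on the log2 scale (limma adjusted p = 0.0398). Both adjusted p-values lie just under the threshold, and neither call was made at equal depth, with the replicate number as a block, or without any 1 library other than normal pressure replicate 2.

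**Figure D4:**
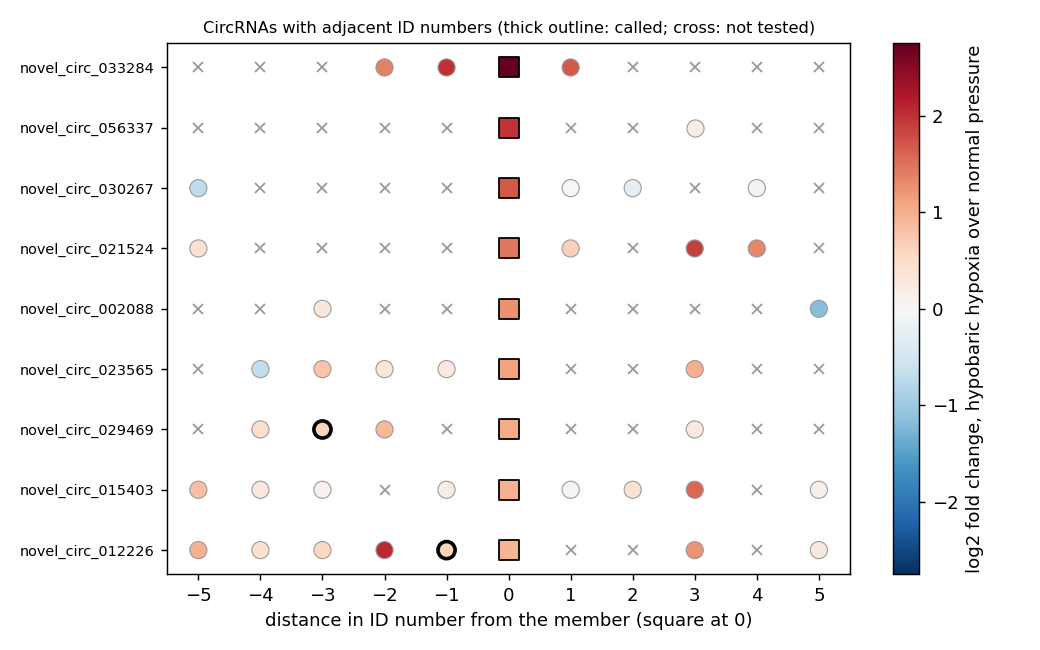
Log2 fold change (colour) of circRNAs with ID numbers up to 5 below or above each of the 9 (squares at 0), with crosses for those not seen in enough libraries to be tested and thick outlines for the 2 called by limma. All tested neighbours are above 0 (red to nearly white) for novel_circ_033284, novel_circ_056337, novel_circ_021524, novel_circ_029469, novel_circ_015403 and novel_circ_012226, and those of novel_circ_030267 are white to blue.

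The neighbourhoods differed from one circRNA to another. Around novel_circ_012226 all 7 tested neighbours had a log2 fold change above 0, with a median of 0.64. Those with ID numbers 5 and 2 below it were at 0 in all normal pressure libraries, so the filter fixed their direction. All 8 tested around novel_circ_015403 were above 0, with a median of 0.24. Both its immediate neighbours were nearly level, at 133 and 153 RPM and at 93.3 and 95.7 RPM at normal pressure and hypoxia. Around novel_circ_030267, by contrast, all 4 had log2 fold changes below 0, from -0.72 to -0.04, and the one next above it had 32.7 RPM at normal pressure and 33.7 RPM in hypoxia. novel_circ_033284 lies between 2 scarce neighbours that were also higher in hypoxia. They went from 3.65 to 25.4 RPM on the lower side and from 0 in all normal pressure libraries to 12.0 RPM on the upper side. The filter fixed the direction of the upper one, and neither passed the test (limma adjusted p = 0.556 for both). For novel_circ_056337 only 1 of 10 neighbours could be tested, with a log2 fold change of 0.20. None of these differences between neighbourhoods was tested.

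Summed over the 18 circRNAs directly below or above the 9, abundance was 668, 628 and 593 RPM at normal pressure and 842, 978 and 930 RPM under hypobaric hypoxia. The groups did not overlap, with means of 630 ± 37.5 and 917 ± 68.7 RPM (SD, n = 3). The difference of 287 RPM had p = 0.1 (exact permutation test, two-sided), the smallest p that 3 against 3 libraries allow. A large part came from the neighbour below novel_circ_012226, without which the sums were 276 ± 17.7 and 364 ± 28.0 RPM (SD, n = 3), a difference of 87.9 RPM.

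The circRNAs outside the list whose pattern was most like that of the 9 were sought among the 6050 others seen in all libraries. Likeness was measured as the root mean square difference, over the 6 libraries, between a centred log2 profile and the mean profile of the 7 listed circRNAs seen in all libraries. The nearest were novel_circ_016856 and novel_circ_004981, at 0.13 and 0.14, closer than any of the 7 themselves (0.16 for novel_circ_023565 to 0.61 for novel_circ_030267). novel_circ_016856 had 11.0, 13.2 and 10.8 RPM at normal pressure and 24.0, 34.2 and 39.0 RPM under hypobaric hypoxia, and novel_circ_004981 had 16.4, 13.2 and 16.3 RPM against 35.9, 43.7 and 47.2 RPM. In both, each hypoxia library lay above each normal pressure library, which a choice by likeness to the listed circRNAs favours. Both rest on as few as 2 reads in a library and were not called (limma adjusted p = 0.703 and 0.556).

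**Figure D5:**
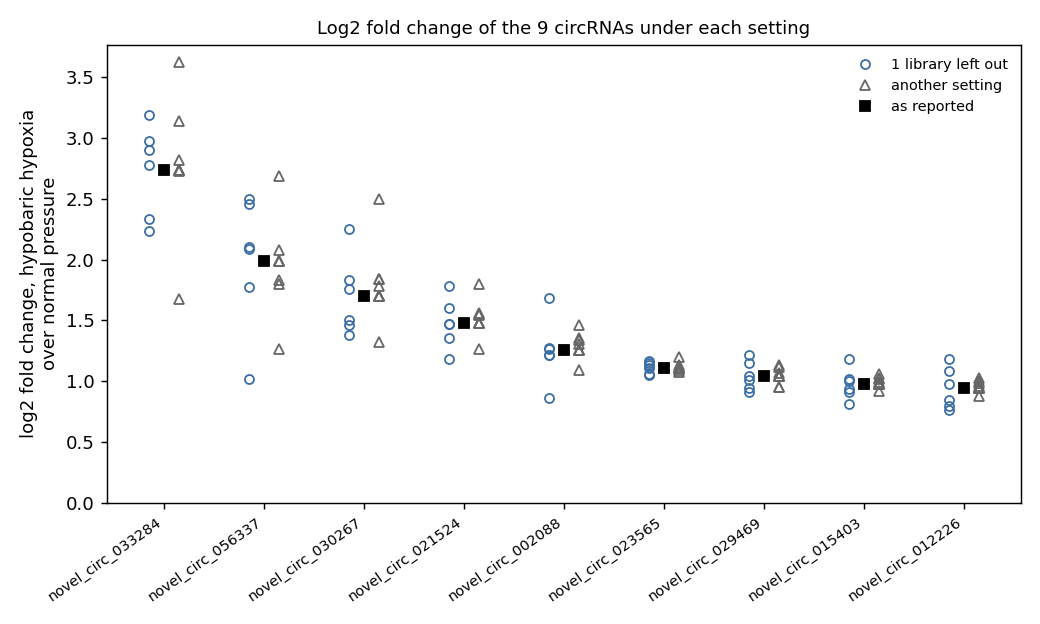
Log2 fold change of the 9 circRNAs as reported (black squares), with each of the 6 libraries left out in turn (blue circles) and under other settings of the processing (grey triangles), on an axis that starts at 0. Every point lies above 0, the points of novel_circ_023565 nearly coincide, and those of novel_circ_033284 and novel_circ_056337 spread the most.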

How the data were processed

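Per the labels' protocols, ovarian total RNA was treated with DNase I, depleted of ribosomal RNA, digested with RNase R and sequenced as strand-specific libraries on a DNBSEQ-G400. BWA, Bowtie2 and the build GRCm38 appear in the submitters' processing notes; the circRNA caller is not given in the sources used here. Values in the deposited table are RPM, which the authors scaled to an equal total over the listed circRNAs of every library. Of the values above 0, 100% were whole multiples (within 0.05) of 1 read. Reads carry no molecular identifiers, so intervals cover counting error only.

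CircRNAs above 0 in at least 3 of 6 libraries were compared on log2(RPM + 4.765). The pseudocount equals the smallest listed value of a typical library (their median) and shrinks the log2 fold changes of scarce circRNAs. A library at 0 can still raise the fold above the ratio of means. For novel_circ_056337 the fold on the log2 scale was 3.98, where the ratio of mean RPM was 3.35. The fit used limma 3.58.1 (R 4.3.3) with intensity trend, robust variances and no term but group; p-values are two-sided and adjusted by Benjamini-Hochberg at 0.05. The fit was tested on simulated data. Summed values were compared by exact permutation (scipy 1.17.1). The members, lists and tests were chosen with earlier results of these data known; named circRNAs are the 9, their neighbours by distance in ID number, and the 2 of most similar profile. Libraries with the same replicate number showed no shared deviation from their group means (correlations -0.002, -0.024 and 0.003 over 6057 circRNAs), so the number was not used as a pairing. A planned count-model test on recovered reads was not run.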

Additional observations from a re-analysis of the deposited data

How the results depend on the processing

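Of 133 log2 fold changes of the 9 computed under the alternatives, 34 equal the reported value by construction (they change the filter, the variance model or the block). Of the other 99, those that moved by over 1 replicate SD were novel_circ_030267 at equal depth (2.50, in 1 draw) and novel_circ_033284 with a pseudocount of 1.19 or 19.1 RPM (3.63 and 1.67). None was below 0. Since the groups of all 9 do not overlap, neither a library left out nor a pseudocount could turn their direction. The limma calls were less stable. Since the 9 were chosen on this contrast, their counts describe the settings and are no test of the 9. At equal depth 5 of the 9 were called, out of 41 calls in either direction among 10504 circRNAs tested (in 1 draw). Over 20 draws it was 2 to 5, out of 25 to 53 calls. Without the filter it was 4, out of 49 calls among 48750 tested. With the smaller pseudocount it was 3, out of 27 calls among 15737. Restricted to circRNAs present in all 6 libraries it was 5, out of 42 calls among 6057, and 2 of the 9 then drop out. In limma with neither trend nor robust variances it was 0, with 0 calls in all (8 of the 9 at an unadjusted p under 0.05). Leaving out 1 library gave 1 to 7, out of 4 to 58 calls. novel_circ_023565 was the one called without normal pressure replicate 1 or 3 or hypoxia replicate 2 or 3. Over all circRNAs tested, the 26 called higher became 10, 14 and 0, and 1 to 30, with the smaller pseudocount, with circRNAs seen in all libraries, without trend (1408 at an unadjusted p under 0.05) and with 1 library left out. The 38 called lower became 21 at equal depth, 22 after median centring, 17 with the smaller pseudocount, 0 without trend and 3 to 28 with 1 library left out. Quantile normalization moved the median of all circRNAs tested from 0.18 to 0.02 and left 8 of the 9 called, out of 67 calls. The 2 called neighbours became 0 in limma with the smaller pseudocount, without the filter, without trend, at equal depth, with circRNAs seen in all libraries and with the replicate number as a block (5 to 9 at an unadjusted p under 0.05), 0 to 2 with 1 library left out, and 1 when only immediate neighbours count. Their median log2 fold change lay between 0.30 and 0.60. For these shifts the cause was not tested. With the replicate block, 27 circRNAs were called higher, 38 lower and 7 of the 9, novel_circ_033284 and novel_circ_056337 being lost; it changed no other call of the 9. The summed difference of immediate neighbours was 256 to 324 RPM with 1 library left out, 310 at equal depth and 1003 over 5 ID numbers on each side; the sum without the neighbour of largest change was chosen after seeing the data.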
